A study of Mus musculus with 6 samples.

Results

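The genes of MHC class I antigen presentation were measured in the spinal cord of mice whose astrocytes lack Sox2 and of control mice. The 10 genes, H2-K1, H2-D1, B2m, Tap1, Tap2, Tapbp, Psmb8, Psmb9, Psmb10 and Nlrc5, were chosen by name and matched through their Ensembl identifiers, and all 10 were found among the 35275 genes of the count table. Poly(A) RNA of whole spinal cord was sequenced from 3 Sox2 cKO and 3 Ctrl mice, which asks how the loss of Sox2 from astrocytes changes the tissue's transcripts. Sox2 cKO mice are mGfap-Cre:Sox2 fl/fl, in which Cre driven by the mouse Gfap promoter deletes Sox2. The strain of all mice is given as C57BL/6, and the methods give 2 females and 1 male in each group without saying which sample is which. Ctrl mice are labelled mGfap-Cre:Sox2 +/+, but the design text gives mGfap-Cre or Sox2 fl/fl, the methods of the RNA-seq name Sox2 fl/fl littermates, and those of the breeding pool several genotypes with at least 1 floxed allele. The sources thus disagree on whether Ctrl mice carried Cre or a floxed allele. Age is labelled P90 and given elsewhere as P80.

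MHC class I molecules present peptides from inside the cell to CD8+ T cells, as a heavy chain, such as those of H2-K1 and H2-D1, paired with the light chain of B2m. The peptides are cut by the proteasome, in which Psmb8, Psmb9 and Psmb10 can replace constitutive subunits, carried into the endoplasmic reticulum by the Tap1-Tap2 transporter and loaded with the help of Tapbp, while Nlrc5 is a transactivator of class I genes. Neural tissue is known for low class I levels, which interferons can raise.

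Reads assigned to genes numbered 22444930, 25015776 and 21983098 for Ctrl (libraries 2, 4 and 6) and 21507911, 28392184 and 26166638 for Sox2 cKO (libraries 1, 3 and 5). The value columns carry library numbers, and the even numbers were taken as Ctrl from the study's numbering of mice. Sox2 itself had 19.9, 14.8 and 29.5 CPM (counts scaled to library size and normalized by TMM) in Ctrl against 3.16, 2.69 and 2.98 CPM in Sox2 cKO, in the same order of libraries as all values that follow. Every Sox2 cKO library was thus far below every Ctrl library, as the assigned groups require. Markers of astrocytes (Gfap, 773 FPKM over all libraries), oligodendrocytes (Mbp, 2930 FPKM) and neurons (Snap25, 497 FPKM) were abundant, as the tissue label requires.

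Sox2 cKO library 1 stood apart. Of 16137 genes tested, 27.2% had their highest CPM in it, beside 12.8% and 10.3% in Sox2 cKO libraries 3 and 5, and 8.24%, 19.4% and 22% in Ctrl. Among the class I genes it was the highest library for 9 of 10, all but Nlrc5. The number of calls also rested on single libraries. With all libraries, 3970 genes (24.6%) had an adjusted p below 0.05 in edgeR's quasi-likelihood test. Without Sox2 cKO library 1 there were 8 and without Ctrl library 4 there were 26, although 4945 and 4758 genes had an unadjusted p below 0.05. DESeq2 called 4334 genes with all libraries, and 2342 and 1974 in the same subsets. The edgeR count was 6119 without Ctrl library 2, 1082 without Ctrl library 6, 1359 without Sox2 cKO library 3 and 2665 without Sox2 cKO library 5.

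Of the 10 class I genes, all passed the filter on low counts and 3 were DEGs in edgeR, namely B2m, H2-D1 and Psmb10, each higher in Sox2 cKO. Over all genes tested, 12.2% were DEGs that were higher and 12.4% DEGs that were lower. The median log2 fold change was 0.39 over the 10 genes and 0.02 over all genes tested, and without Sox2 cKO library 1 that of the 10 genes was 0.18 in edgeR and 0.17 in DESeq2. Every Sox2 cKO library was above every Ctrl library for 5 of the 10 (H2-K1, H2-D1, B2m, Psmb8 and Psmb10), beside 22.6% of all genes tested, and 22.1% had the reverse. The edgeR calls among the 10 fell to 0 without Sox2 cKO library 1 or Ctrl library 4, with 3 genes at an unadjusted p below 0.05 each time, and to 1 (B2m) without Ctrl library 6. DESeq2 called 3, 2 and 3 in these subsets. In bulk tissue, a change in the number of cells of a type and a change in RNA per cell cannot be told apart.

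**Figure D1:**
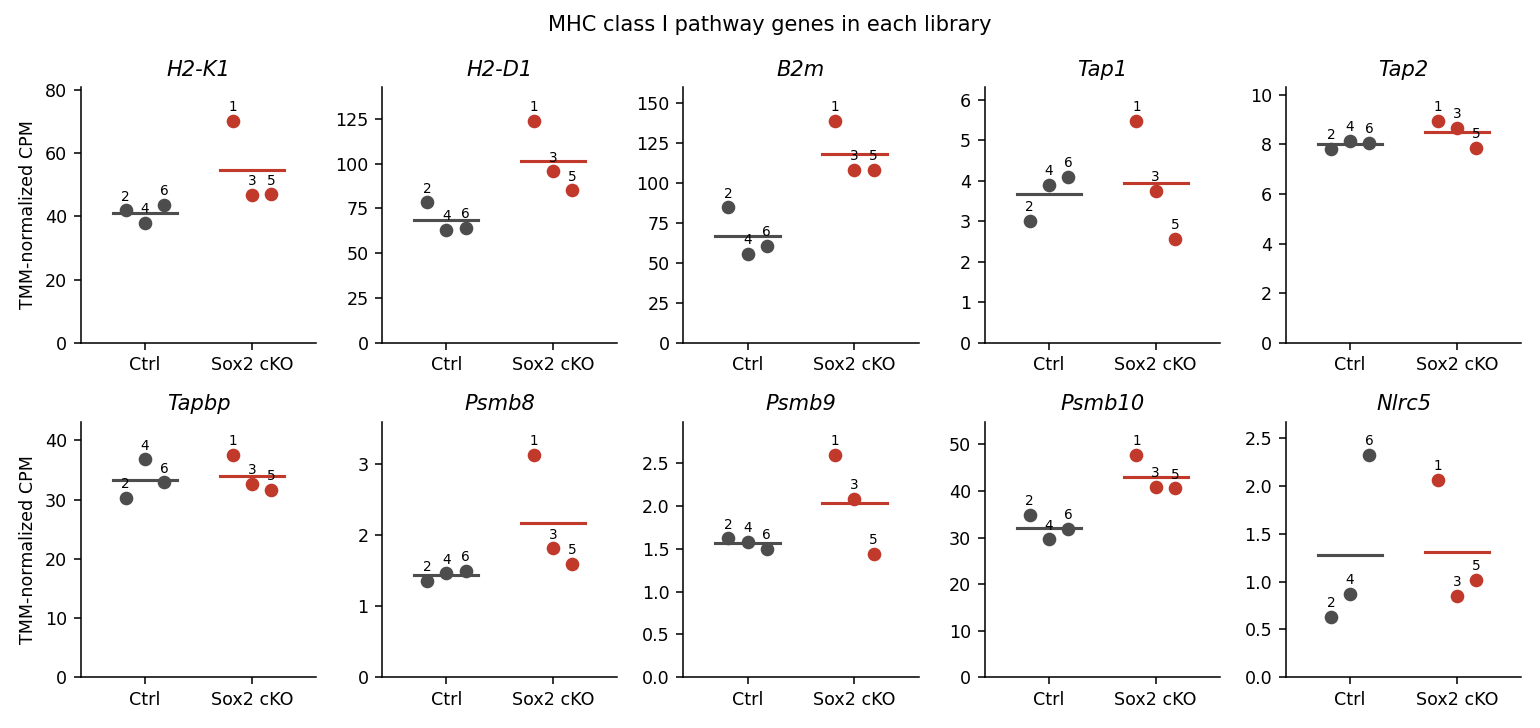
Normalized CPM of the 10 class I pathway genes (vertical axes, each from 0) by library, with library numbers beside the points and group means as bars. Sox2 cKO library 1 was the highest for 9 of 10 genes, and for B2m, H2-D1, H2-K1, Psmb8 and Psmb10 the groups did not overlap.

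The heavy chain genes lie in the MHC on chromosome 17, and B2m lies on chromosome 2. Their promoters are shown because all 3 genes were higher in each Sox2 cKO library. The sequences are RefSeq windows in GRCm38.p6 that run from 250 bases before to 50 bases after the start site, each 5′ to 3′ on the strand of its gene: chr17:35262844-35263143 (plus) for H2-D1, chr17:34000284-34000583 (minus) for H2-K1 and chr2:122147437-122147736 (plus) for B2m.
H2-D1: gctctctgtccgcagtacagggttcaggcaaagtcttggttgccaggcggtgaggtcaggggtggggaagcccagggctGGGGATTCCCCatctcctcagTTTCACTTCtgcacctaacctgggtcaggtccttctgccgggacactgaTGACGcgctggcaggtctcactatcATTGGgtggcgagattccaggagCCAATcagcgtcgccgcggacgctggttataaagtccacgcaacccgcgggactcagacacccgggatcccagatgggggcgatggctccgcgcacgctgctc
H2-K1: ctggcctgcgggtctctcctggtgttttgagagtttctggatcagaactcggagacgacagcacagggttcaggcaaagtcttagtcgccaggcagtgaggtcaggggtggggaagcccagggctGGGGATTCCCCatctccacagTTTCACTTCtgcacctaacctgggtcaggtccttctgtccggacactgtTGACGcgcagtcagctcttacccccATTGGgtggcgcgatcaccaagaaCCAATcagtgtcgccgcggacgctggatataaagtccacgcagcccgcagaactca
B2m: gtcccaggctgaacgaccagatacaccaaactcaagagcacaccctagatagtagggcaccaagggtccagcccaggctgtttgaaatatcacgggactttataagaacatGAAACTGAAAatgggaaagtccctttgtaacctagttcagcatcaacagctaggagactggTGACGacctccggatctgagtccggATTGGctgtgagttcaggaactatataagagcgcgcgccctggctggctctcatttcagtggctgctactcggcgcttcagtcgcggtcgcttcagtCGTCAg
Capitals mark matches, on either strand, to letters taken after the windows had been read. These are GGGGATTCCCC (an enhancer A type element of NF-kappa-B), GAANNGAAA and GAAANNGAAA (forms of the interferon response element), TGACG (the X2 box core) and CCAAT (the Y box core). No matches overlapped each other in these windows. Among all 32851 promoter windows of this length, GGGGATTCCCC was found in 0.0304%, GAANNGAAA in 7.52%, GAAANNGAAA in 3.44%, TGACG in 20.8% and CCAAT in 37.4%.

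H2-D1 and H2-K1 shared 1 layout, in which GGGGATTCCCC came first and GAANNGAAA, TGACG and a pair of CCAAT matches followed. The matches began at -171, -150, -101, -76 and -53 from the start site in H2-D1 and at -125, -104, -55, -30 and -6 in H2-K1. The longest identical stretch of both windows was 47 bases. These 4 kinds of match occurred together in 3 of the 32851 windows, which are the H2-D1 window and both H2-K1 windows of the table. Both H2-K1 windows cover nearly the same bases, and the letters were chosen with these windows in view. The count is therefore a description and not a test. The B2m window held GAAANNGAAA at -139, TGACG at -78 and 44, and CCAAT at -53, but not the letters GGGGATTCCCC. Windows were found for 8 of the 10 genes, all but Tap2 and Nlrc5. The Tap1 and Psmb9 windows, on opposite strands, shared 275 bases, and each held 1 TGACG and 1 CCAAT match. These matches are the same bases of the genome, seen in both windows. The Tapbp window held 2 CCAAT matches, and none of these letters was in the Psmb8 and Psmb10 windows. A match describes the sequence and shows no binding.

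B2m (ENSMUSG00000060802, chr2:122147686-122153083 in GRCm38), the light chain, had Ctrl values of 84.7, 55.7 and 60.5 CPM and Sox2 cKO values of 139, 108 and 108 CPM. The groups did not overlap, and Ctrl library 2 was the highest of its group. The means were 67.0 ± 15.5 CPM in Ctrl and 118 ± 17.9 CPM in Sox2 cKO (SD, n = 3 each), a difference larger than either spread. B2m was 1.77-fold higher, with a log2 fold change of 0.82 ± 0.16 (SE; 95% confidence interval 0.48 to 1.17) and an adjusted p of 0.0127 in edgeR. The edgeR adjusted p was 0.0650 without Ctrl library 4 and 0.0656 without Sox2 cKO library 1, at log2 fold changes of 0.71 and 0.69, and 0.0427 without Ctrl library 6. The length correction described further on gave a log2 fold change of 0.45, below the confidence interval given, at an edgeR adjusted p of 0.0295.

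H2-D1 (ENSMUSG00000073411, chr17:35262730-35267499), a classical heavy chain, had Ctrl values of 78.3, 62.8 and 64.1 CPM and Sox2 cKO values of 124, 95.6 and 85.0 CPM. The groups did not overlap, with Sox2 cKO library 5 nearest to Ctrl library 2. H2-D1 was 1.48-fold higher (68.4 ± 8.61 CPM in Ctrl and 102 ± 20.3 CPM in Sox2 cKO, SD, n = 3 each). Its log2 fold change was 0.57 ± 0.14 (SE), at an adjusted p of 0.0196 in edgeR. This edgeR adjusted p rose to 0.0916 without Ctrl library 4, 0.0653 without Ctrl library 6 and 0.0760 without Sox2 cKO library 1. The log2 fold changes were then 0.51, 0.53 and 0.40, and DESeq2 gave adjusted p values of 0.0226, 0.0128 and 0.0271. After the length correction the edgeR adjusted p was 0.0418, at a log2 fold change of 0.42.

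H2-K1 (ENSMUSG00000061232, chr17:33996017-34000347), the other classical heavy chain here, had Ctrl values of 41.9, 37.9 and 43.8 CPM and Sox2 cKO values of 70.4, 46.8 and 47.0 CPM. Library 1 was well above the rest, while Sox2 cKO libraries 3 and 5 exceeded the Ctrl libraries by little. The log2 fold change of H2-K1 was 0.41 ± 0.15 (SE) and missed the threshold in edgeR (adjusted p 0.0693) but passed it in DESeq2 (adjusted p 0.0390). It was 0.19 without Sox2 cKO library 1, where DESeq2 gave an adjusted p of 0.299, and DESeq2 gave 0.180 without Ctrl library 4 and 0.0543 without Ctrl library 6. Class I heavy chain genes share long stretches of sequence, so reads may have been dropped or given to another copy, and the counts of each heavy chain gene are uncertain to that extent.

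Levels of different genes were compared in FPKM, which takes gene length into account. In Ctrl, B2m was the highest at 75.5 ± 19.5 FPKM (SD, n = 3), and the heavy chains stood at 31.5 ± 4.77 FPKM for H2-D1 and 21.2 ± 1.53 FPKM for H2-K1. Psmb10, at 24.4 ± 2.56 FPKM in Ctrl, lay between them, and its range of mean ± SD met those of both, while Tapbp had 11.1 ± 0.988 FPKM. The other genes had low levels. In Ctrl, Tap2 had 2.25 ± 0.0352 FPKM, Tap1 0.904 ± 0.123 FPKM, Psmb8 0.725 ± 0.0208 FPKM, Psmb9 0.524 ± 0.0337 FPKM and Nlrc5 0.175 ± 0.122 FPKM. The Sox2 cKO means kept the same order for the 5 most abundant genes, with 143 ± 24.6 FPKM for B2m, 50.1 ± 11.2 FPKM for H2-D1, 35.1 ± 4.06 FPKM for Psmb10, 30.3 ± 8.21 FPKM for H2-K1 and 12.2 ± 1.38 FPKM for Tapbp.

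None of the 3 transport and loading genes passed the test in edgeR or DESeq2, and none had an unadjusted p below 0.05 in edgeR. Tap1 (ENSMUSG00000037321, chr17:34187553-34197225), a subunit of the peptide transporter, had Ctrl values of 3.01, 3.91 and 4.10 CPM and Sox2 cKO values of 5.49, 3.75 and 2.57 CPM. The highest and the lowest library were both Sox2 cKO, so the groups overlapped fully. Its log2 fold change of 0.09 ± 0.27 (SE) became -0.21 without Sox2 cKO library 1 and -0.03 without Ctrl library 2. Tap2 (ENSMUSG00000024339, chr17:34203527-34216321), the other subunit, had Ctrl values of 7.81, 8.15 and 8.06 CPM and Sox2 cKO values of 8.96, 8.66 and 7.86 CPM. The Ctrl libraries lay close together, and Sox2 cKO library 5 fell among them. Its log2 fold change was 0.08 (95% confidence interval -0.19 to 0.36). Tapbp (ENSMUSG00000024308, chr17:33915899-33929292), or tapasin, which bridges transporter and empty class I molecules, had Ctrl values of 30.3, 36.8 and 32.9 CPM and Sox2 cKO values of 37.5, 32.7 and 31.7 CPM. The groups overlapped, with the highest value in Sox2 cKO library 1 and the next in Ctrl library 4. The log2 fold change of Tapbp was 0.03 (95% confidence interval -0.20 to 0.26), and it was -0.03 after the length correction and -0.03 after a GC correction. Whether these genes and B2m differ in their response was not tested.

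Psmb10 (ENSMUSG00000031897, chr8:105935735-105938444), an inducible proteasome subunit, had Ctrl values of 34.9, 29.6 and 31.8 CPM and Sox2 cKO values of 47.7, 40.9 and 40.6 CPM. The groups did not overlap, and Sox2 cKO libraries 3 and 5 were nearly equal. Psmb10 was 1.34-fold higher, at a log2 fold change of 0.42 ± 0.10 (SE) and an adjusted p of 0.0179 in edgeR. Its edgeR adjusted p was 0.0878 without Ctrl library 4, 0.0577 without Ctrl library 6 and 0.0769 without Sox2 cKO library 1. The log2 fold changes were then 0.37, 0.42 and 0.35. In these subsets DESeq2 gave adjusted p values of 0.0627, 0.0293 and 0.048, and it called Psmb10 with any other library left out. With the length correction the log2 fold change was 0.13 and Psmb10 was not called (edgeR adjusted p 0.248).

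Psmb8 (ENSMUSG00000024338, chr17:34197721-34201454), the inducible partner of Psmb5, had Ctrl values of 1.35, 1.46 and 1.5 CPM and Sox2 cKO values of 3.12, 1.81 and 1.59 CPM, from 30 to 71 counts in a library. The groups did not overlap, but Sox2 cKO library 5 was only just above Ctrl. Psmb8 had a log2 fold change of 0.59 ± 0.29 (SE), not called in edgeR (adjusted p 0.162), and 0.25 without Sox2 cKO library 1. Psmb9 (ENSMUSG00000096727, chr17:34181987-34187764), the inducible partner of Psmb6, had Ctrl values of 1.62, 1.58 and 1.5 CPM and Sox2 cKO values of 2.59, 2.08 and 1.44 CPM. Sox2 cKO library 5 was the lowest of all, so the groups overlapped. Psmb9 had a log2 fold change of 0.37 ± 0.26 (SE; adjusted p 0.314 in edgeR), and 0.17 without Sox2 cKO library 1. Psmb9 and Tap1 share 212 bases on opposite strands, and although the library kit named in the methods is a directional one, the study does not say if reads were counted by strand, so their counts there are uncertain.

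Each inducible subunit was compared with the constitutive subunit whose place it takes, as a ratio of counts per kilobase within a library. Psmb10 stood at 19.2%, 19.1% and 19.0% of Psmb7 in Ctrl and at 23.9%, 22.4% and 22% in Sox2 cKO. The Ctrl ratios were nearly equal and every Sox2 cKO ratio was above them. The mean log2 ratio differed by 0.25 (exact two-sided permutation p = 0.1, the smallest that 3 against 3 mice can give, and 0.3 adjusted over 3 ratios). Psmb8 stood at 0.880%, 0.953% and 0.785% of Psmb5 in Ctrl and at 1.64%, 1.07% and 0.884% in Sox2 cKO. Sox2 cKO library 5 lay among the Ctrl libraries, and the log2 difference was 0.41 (exact two-sided permutation p = 0.2, adjusted 0.3), and it was 0.16 without Sox2 cKO library 1. Psmb9 stood at 0.583%, 0.645% and 0.513% of Psmb6 in Ctrl and at 0.736%, 0.677% and 0.463% in Sox2 cKO. These overlapped, with a log2 difference of 0.09 (exact two-sided permutation p = 0.7, adjusted 0.7) that was -0.04 without Sox2 cKO library 1, 0.02 without library 3 and 0.29 without library 5, and 0.17 and 0.00 without Ctrl libraries 4 and 6.

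Nlrc5 (ENSMUSG00000074151, chr8:94434356-94527272), the transactivator, was the least abundant of the 10, at 14 to 48 counts in a library. It had Ctrl values of 0.628, 0.873 and 2.32 CPM and Sox2 cKO values of 2.06, 0.853 and 1.02 CPM. Ctrl library 6 and Sox2 cKO library 1 were high and the other 4 libraries low, so the groups overlapped. The log2 fold change was 0.04 (95% confidence interval -1.07 to 1.14; adjusted p 0.961 in edgeR), and it was 0.78 without Ctrl library 6 and -0.43 without Sox2 cKO library 1. Differences within that interval are not excluded.

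Fold changes over all genes followed gene length. When the genes tested were ordered by length into 5 classes of nearly equal size, the median log2 fold change was 0.30 in the shortest class (up to 1708 bases), which holds B2m and Psmb10, and 30.4% of that class were DEGs that were higher. In the next class (up to 2614 bases), which holds H2-K1, H2-D1 and Psmb8, the values were 0.15 and 15.3%. The longest class, which holds Nlrc5, had -0.25 and 1.74%. After each library was corrected for its own trend with length, 6.05% of all genes tested were DEGs that were higher in edgeR, and 2 of the 10 class I genes were. B2m then had a log2 fold change of 0.45 (edgeR adjusted p 0.0295) and H2-D1 had a log2 change of 0.42 (edgeR adjusted p 0.0418). Psmb10 had a log2 change of 0.13 (edgeR adjusted p 0.248) and H2-K1 had a log2 change of 0.22 (edgeR adjusted p 0.283), and neither was called. The median over the 10 genes was 0.27 after correction, beside 0.00 over all genes tested.

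**Figure D2:**
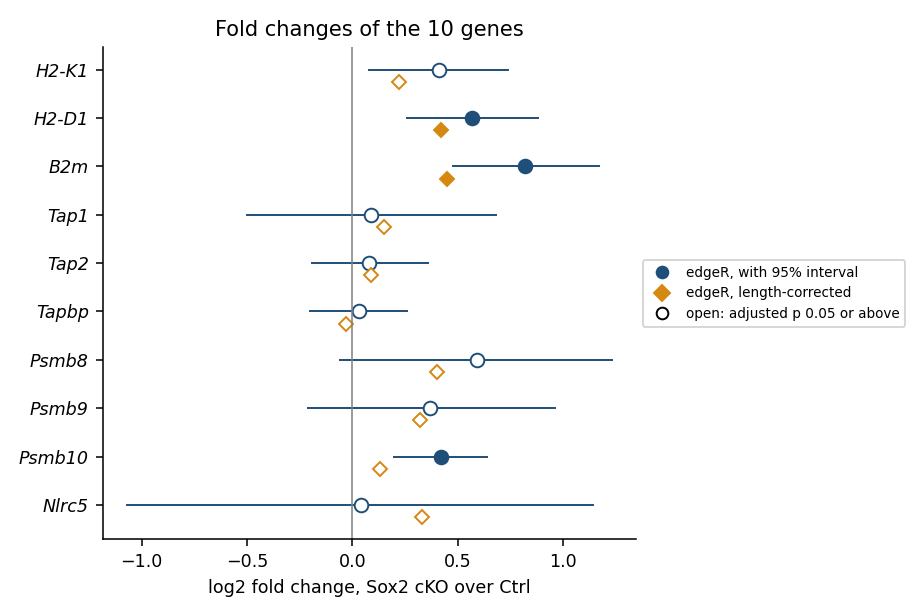
Log2 fold changes of the 10 class I pathway genes, Sox2 cKO over Ctrl (horizontal axis), from edgeR with 95% confidence intervals (circles) and after correction for gene length (diamonds), filled where the adjusted p was below 0.05. B2m and H2-D1 are filled in both fits and Psmb10 in the uncorrected fit alone.

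The other fits gave these counts among the 10 genes, each beside the share of all genes tested that were DEGs that were higher. DESeq2 called 4, the 3 of edgeR and H2-K1, beside 12.9%, and edgeR without a filter called the same 4 beside 8.62%. The 3 genes of edgeR were called with upper quartile normalization (14.3%), with a minimum of 10 counts in every library (13.7%), with a GC correction (11.9%) and by limma on FPKM with a pseudocount of 1 (18.1%) or 0.1 (17.7%). With 1 library left out, edgeR called 3 without Ctrl library 2 (18.3%), 0 without Ctrl library 4 (0.0794%), 1 without Ctrl library 6 (3.64%), 0 without Sox2 cKO library 1 (0.0182%), 3 without Sox2 cKO library 3 (4.27%) and 3 without Sox2 cKO library 5 (8.13%). In DESeq2 the same subsets gave 4 (16.5%), 2 (6.41%), 3 (7.29%), 3 (7.23%), 4 (7.52%) and 4 (9.18%). The log2 fold changes of B2m, H2-D1 and Psmb10 were above 0 in all of these fits.

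**Figure D3:**
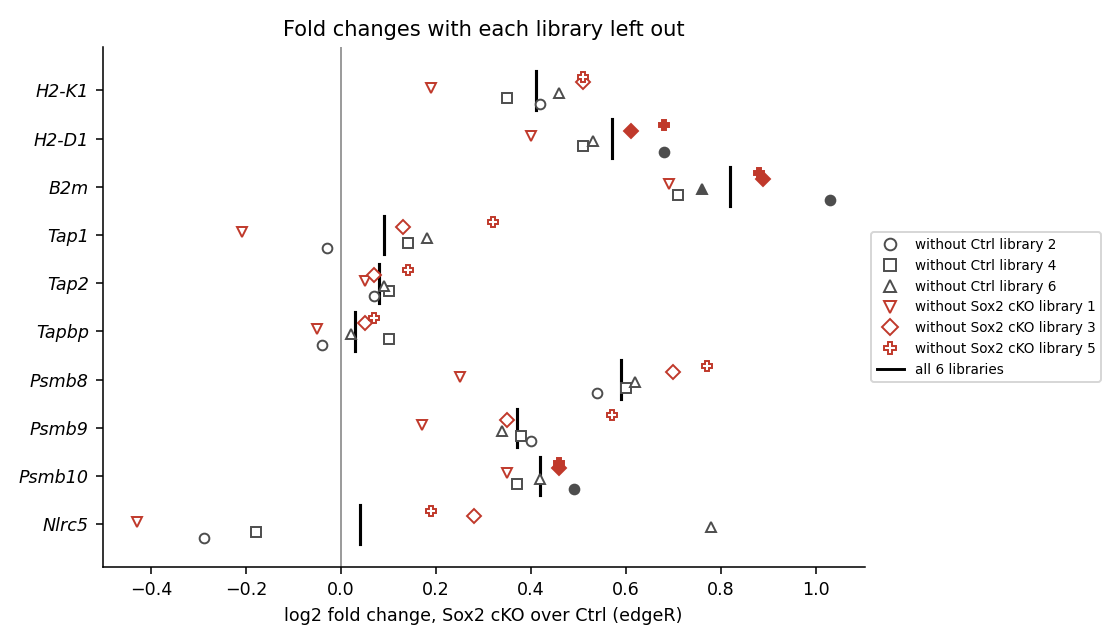
Log2 fold changes of the 10 class I pathway genes from edgeR (horizontal axis) with all libraries (black bars) and with 1 library left out (symbols, grey for Ctrl and red for Sox2 cKO), filled where the adjusted p was below 0.05. Leaving out Sox2 cKO library 1 gave the lowest value for each of the 10 genes and moved Tap1, Tapbp and Nlrc5 below 0.

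A profile over libraries was formed as the mean standardised log2 CPM of the 10 genes, which was -0.65, -0.50 and -0.33 in Ctrl and 1.53, 0.26 and -0.31 in Sox2 cKO. Sox2 cKO library 1 was far above the rest, and library 5 lay beside Ctrl library 6. The genes outside the lists whose log2 CPM was most like this profile were Arih2, Lrg1, Osmr, Ackr1 and Pld4 (highest Pearson's r over 6 libraries, of both groups, as a description). Of these Lrg1 was a DEG (log2 change 1.94, edgeR adjusted p 0.0346). It had 0.493, 0.665 and 0.772 CPM in Ctrl and 4.92, 1.74 and 0.907 CPM in Sox2 cKO. Its edgeR adjusted p was 0.129 without Sox2 cKO library 1, at a log2 change of 1.05. Without Ctrl library 2, 4 or 6 the edgeR adjusted p was 0.0670, 0.112 and 0.0756, at log2 changes of 1.79, 1.97 and 2.09. It was 0.0557 without Sox2 cKO library 3 and 0.0755 after the length correction, at log2 changes of 2.16 and 1.63. Lrg1 was called in edgeR without Sox2 cKO library 5 (adjusted p 0.0236) and in DESeq2 with all libraries (adjusted p 0.00324). DESeq2 also called it with any library but Sox2 cKO library 1 left out, and gave no adjusted p without that library.

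By position, 7 of the 10 genes lie on chromosome 17 from Tapbp to H2-D1, whereas B2m, Psmb10 and Nlrc5 lie elsewhere, so 2 of the 3 DEGs are outside the MHC. Of 60 other tested genes in that interval, 15 were higher and 3 lower in edgeR, beside 12.2% and 12.4% of all genes tested, at a median log2 fold change of 0.06 (0.12 without Ctrl library 6). With the length correction 5 were higher and 6 lower in edgeR, at a median of 0.02, beside 976 higher and 1129 lower among all 16137 genes tested. The largest log2 fold changes among those called were 1.94 for Ager, 1.44 for 1110038B12Rik, 1.11 for Lst1 and 0.90 for BC051142, and -0.50 for Prrc2a, -0.44 for D17H6S53E and -0.40 for Agpat1. Rps18, a ribosomal protein gene and the most abundant at 134 FPKM, had a log2 change of 0.34 (edgeR adjusted p 0.0448), and 0.01 after the length correction. Without Sox2 cKO library 1 or Ctrl library 4, edgeR called 0 of the 60 (22 and 19 had an unadjusted p below 0.05) and DESeq2 called 11 and 8. Without Ctrl library 2, Ctrl library 6, Sox2 cKO library 3 or Sox2 cKO library 5, edgeR called 26, 4, 8 and 13.

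Other class I and class I-like genes were mostly above 0. Of 22 genes 17 were tested, of which 3 were higher and 0 lower in edgeR, and the median log2 fold change was 0.53. Counts of this list and those that follow stand beside 12.2% higher and 12.4% lower among all genes tested in edgeR. H2-T23, which encodes the nonclassical molecule Qa-1, had Ctrl values of 14.0, 13.1 and 9.80 CPM and Sox2 cKO values of 24.3, 17.3 and 16.2 CPM. Its groups did not overlap, and its log2 fold change was 0.64 ± 0.18 (SE; edgeR adjusted p 0.0281). H2-M3, which presents formylated peptides, had a log2 change of 0.67 (edgeR adjusted p 0.0323), and H2-Q2 had a log2 change of 1.20 (edgeR adjusted p 0.0161). The level of H2-Q2 was low, at 17, 23 and 13 counts in Ctrl and 45, 51 and 46 counts in Sox2 cKO. Fcgrt, the neonatal Fc receptor and the most abundant at 19.1 FPKM, had a log2 change of 0.17 (edgeR adjusted p 0.318). H2-T24 was the tested gene below 0, at a log2 change of -0.45 (edgeR adjusted p 0.0595). After the length correction 0 of the 17 were called higher in edgeR, beside 6.05% of all genes tested. H2-T23 then had a log2 change of 0.56 (edgeR adjusted p 0.0509), H2-Q2 of 0.90 (0.0537) and H2-M3 of 0.41 (0.118). H2-T24 was called lower (log2 change -0.60, edgeR adjusted p 0.0446). H2-M2, H2-M9 and Cd1d2 had 0 counts in all 6 libraries.

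Among 8 chaperones and trimming enzymes of peptide loading, 0 were higher and 2 lower in edgeR and DESeq2 alike (3 had an unadjusted p below 0.05 in edgeR), at a median log2 fold change of -0.10. Lnpep, an aminopeptidase of the endosomal route, had Ctrl values of 51.5, 85.1 and 67.0 CPM and Sox2 cKO values of 20.8, 39.4 and 43.0 CPM. All Sox2 cKO libraries were below all Ctrl libraries, at a log2 fold change of -0.98 ± 0.25 (SE; edgeR adjusted p 0.0215). Uggt1, a sensor of glycoprotein folding, had a log2 change of -0.45 (edgeR adjusted p 0.0189), and -0.16 after the length correction. Calr, a chaperone and the most abundant at 189 FPKM, had a log2 change of -0.10 (edgeR adjusted p 0.472).

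Among 8 constitutive proteasome partners and activators, 1 was higher and 0 lower in edgeR, beside 12.2% and 12.4% of all genes tested. The median log2 fold change of the 8 was 0.14. The higher gene was Psme1, a subunit of the PA28 activator, with a log2 fold change of 0.48 (edgeR adjusted p 0.0376). Its partner Psme2 had a log2 change of 0.09 (edgeR adjusted p 0.562), and Pomp, an assembly factor and the most abundant at 171 FPKM, had a log2 change of 0.25 (edgeR adjusted p 0.0691). Corrected for length, Psme1 was not called (edgeR adjusted p 0.122), Psme3 was called lower (log2 change -0.33, edgeR adjusted p 0.0394), as it was in DESeq2 without that correction (adjusted p 0.0346), and the log2 change of Pomp was -0.14. The median of the 8 genes was then -0.14, so its direction turned.

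Among 16 factors that act at class I promoters, 1 was higher and 1 lower in edgeR, beside 12.2% and 12.4% of all genes tested. The median log2 fold change of the 16 was 0.11. Nfyc, a subunit of the factor that binds CCAAT, had a log2 change of 0.35 (edgeR adjusted p 0.0276), and Creb1, which binds TGACG-type letters, had a log2 change of -0.38 (edgeR adjusted p 0.0202). Rfxap, a subunit of RFX and the most abundant at 14.8 FPKM, had a log2 change of 0.24 (edgeR adjusted p 0.0597). Once length was corrected for, neither Nfyc (log2 change 0.19, edgeR adjusted p 0.134) nor Creb1 (log2 change -0.06, edgeR adjusted p 0.547) was called.

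Of 10 interferon ligands, receptors and kinases, with which the inhibitor Socs1 is listed, 8 were tested and 0 were called in edgeR, where 1 had an unadjusted p below 0.05, or in DESeq2, at a median log2 fold change of -0.01. Without Ctrl library 2, the receptor gene Ifngr1 (log2 change 0.37, edgeR adjusted p 0.0808 with all libraries) was called higher in edgeR (0.50, adjusted p 0.0156) and DESeq2 (adjusted p 0.00902). Ifng and Ifnb1 had 0 counts in all 6 libraries, and Jak1, the most abundant at 41.0 FPKM, had a log2 change of -0.16 (edgeR adjusted p 0.182). Of 23 type I interferon-stimulated genes, 22 were tested, 13 were higher and 0 lower in edgeR, and the median was 0.94, or 0.56 in edgeR and 0.55 in DESeq2 without Sox2 cKO library 1. The 4 largest log2 fold changes among the calls were 1.76 for Ifi27l2a, 1.57 for Oas1a, 1.36 for Isg15 and 1.27 for Ifi44, and Ifitm3, the most abundant at 28.5 FPKM, had a log2 change of 1.21. Oas1a did not reach 10 counts in every library, and Ifi44 had a mean below 0.5 FPKM. Ifi44 was at 0.89 without Sox2 cKO library 1 (edgeR adjusted p 0.178) and was not called after the length correction (edgeR adjusted p 0.0572). Of the 22, 7 were called higher in edgeR after the length correction, at a median of 0.80. This list summed to 126, 122 and 105 CPM in Ctrl and 255, 184 and 154 CPM in Sox2 cKO, and the 10 class I genes summed to 285, 239 and 251 CPM and 441, 341 and 327 CPM. In both sums Sox2 cKO library 1 was the highest and library 5 the lowest of its group.

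Of 9 interferon gamma-induced genes found, 8 were tested, 2 were higher and 0 lower in edgeR, at a median log2 fold change of 0.24. Igtp, a GTPase, had a log2 change of 0.90 (edgeR adjusted p 0.0189), Iigp1, another GTPase, had a log2 change of 1.11 (edgeR adjusted p 0.0347), and Gbp3, the most abundant at 3.35 FPKM, had a log2 change of 0.44 (edgeR adjusted p 0.111). Of 8 MHC class II genes, 7 were tested and H2-Eb1 alone was called in edgeR, at a log2 change of 0.76 (adjusted p 0.0249), with a median of 0.43. Cd74, the invariant chain and the most abundant at 6.30 FPKM, had a log2 change of 0.42 (edgeR adjusted p 0.0600). Igtp was called after the length correction (log2 change 0.73, edgeR adjusted p 0.0468). Iigp1 (log2 change 1.08, edgeR adjusted p 0.0522) and H2-Eb1 (log2 change 0.46, edgeR adjusted p 0.143) were not. The list medians were then 0.31 for interferon gamma-induced genes and 0.18 for class II genes.

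**Figure D4:**
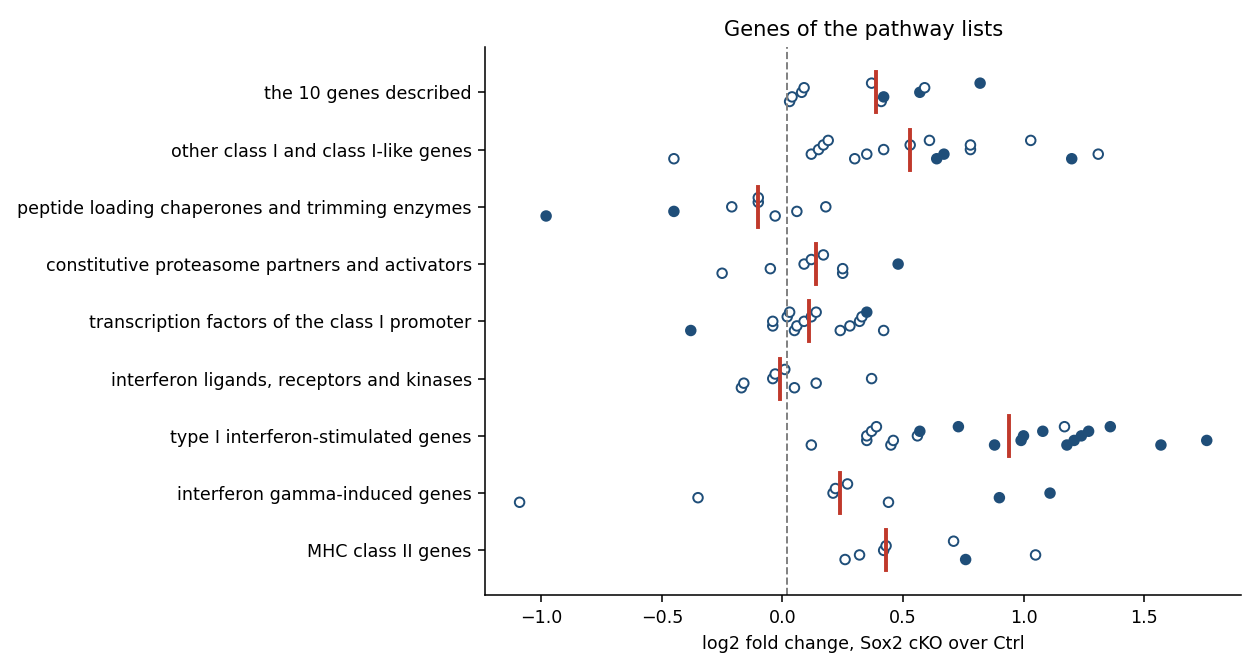
Log2 fold changes, Sox2 cKO over Ctrl (horizontal axis), of the tested genes of each list (circles, filled where edgeR's adjusted p was below 0.05), with list medians in red and the median of all genes tested as a dashed line. The medians were 0.39 for the 10 class I pathway genes, 0.53 for other class I genes, 0.94 for type I interferon-stimulated genes and -0.10 for loading chaperones, beside 0.02 for all genes tested. Without Sox2 cKO library 1 they were 0.18, 0.46, 0.56 and -0.11, beside 0.01.

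Over these 8 lists, 24 of 94 tested genes were called in edgeR, 21 higher and 3 lower, while 24.6% of all genes tested were called, about as many higher as lower. Without Sox2 cKO library 1 or Ctrl library 4, edgeR called 0 of these 24, of which 22 and 24 had an unadjusted p below 0.05, and DESeq2 called 10 and 12 of them. In edgeR 20 of the 24 were called without Ctrl library 2, 7 without Ctrl library 6, 7 without Sox2 cKO library 3 and 23 without Sox2 cKO library 5. After the length correction 9 of the 24 were called. Genes called anew included, edgeR called 37 of the 94 without Ctrl library 2, 26 without Sox2 cKO library 5 and 12 after the length correction. None of the 24 changed sign in any of these fits. With 1 library left out in edgeR, the list medians ran from 0.44 to 0.74 for other class I genes, -0.15 to -0.07 for loading chaperones, 0.09 to 0.20 for proteasome partners, 0.07 to 0.16 for promoter factors, -0.06 to 0.03 for interferon ligands, receptors and kinases, 0.56 to 1.12 for type I interferon-stimulated genes, 0.16 to 0.33 for interferon gamma-induced genes and 0.37 to 0.52 for class II genes.

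Markers of other cells were summed in each library to be set beside the class I genes. Of 8 neutrophil genes 6 were tested and 5 (S100a8, S100a9, Ngp, Camp and Ltf) were higher in edgeR. The neutrophil sum was 18.7, 14.2 and 12.1 CPM in Ctrl and 69.7, 70.7 and 22.4 CPM in Sox2 cKO, so that library 3 was as high as library 1 and library 5 much lower. S100a8 was the most abundant at 25.4 FPKM, and S100a9 changed the most, at a log2 change of 2.36. Of 6 border macrophage genes, 1 was higher in edgeR, Pf4, the most abundant at 2.46 FPKM and the most changed at a log2 change of 1.58, and the sum was 20.5, 20.8 and 10.6 CPM in Ctrl and 29.9, 24.3 and 20.6 CPM in Sox2 cKO. Of 8 endothelial genes, 2 were higher in edgeR, Ly6c1, the most abundant at 46.1 FPKM and the most changed at a log2 change of 1.09, and Itm2a at a log2 change of 0.55. The endothelial sum was 266, 259 and 275 CPM in Ctrl and 393, 287 and 298 CPM in Sox2 cKO, with the high value in library 1. Of the 8 endothelial genes 6 were above 0, at a median of 0.27, or 0.11 in edgeR without Sox2 cKO library 1. In edgeR and DESeq2 1 endothelial gene was called lower without Ctrl library 2, and in DESeq2 1 was called lower without Sox2 cKO library 1. Without Sox2 cKO library 1 or Ctrl library 4, edgeR called 0 of these neutrophil, macrophage and endothelial genes. Of them 5, 1 and 4 had an unadjusted p below 0.05 in edgeR without the former and 6, 4 and 3 without the latter, and DESeq2 called 2, 0 and 2 of them higher without the former and 3, 0 and 2 without the latter. Without Ctrl library 6, edgeR called 1, 0 and 1 of them higher, and without Sox2 cKO library 3 it called 1, 0 and 2. With the length correction it called 3, 0 and 2, at list medians of 1.34, 0.63 and 0.31.

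Of 10 microglia genes, 0 were called in edgeR before the length correction, where 4 had an unadjusted p below 0.05, and DESeq2 called C1qa higher and Cx3cr1 and Csf1r lower. The microglia sum was 291, 290 and 335 CPM in Ctrl and 348, 279 and 252 CPM in Sox2 cKO. In edgeR the same 3 genes were called without Ctrl library 2, and C1qa was called higher without Sox2 cKO library 5. The list median was 0.08, and it turned to -0.06 after the length correction, with 1 gene called lower and 0 higher in edgeR, and to -0.03 without Sox2 cKO library 1. The most abundant, C1qa at 45.8 FPKM, had Ctrl values of 42.8, 31.6 and 37.0 CPM and Sox2 cKO values of 80.2, 49.3 and 42.1 CPM, and Aif1 changed the most, at a log2 change of 0.64 (edgeR adjusted p 0.0627). Of 14 T and NK cell genes, Trac alone was tested, the most abundant at 1.70 FPKM, with a log2 change of -0.50, and the list summed to 0.897, 1.25 and 1.93 CPM in Ctrl and 1.98, 1.4 and 2.0 CPM in Sox2 cKO. Cd8a was at 0 in Ctrl libraries 4 and 6 and Sox2 cKO library 3, and no gene of the marker lists was at 0 in all libraries. Of 4 B cell genes, Cd79a alone was tested, the most abundant, with a log2 change of 0.48, and the sum was 0.763, 1.21 and 0.338 CPM in Ctrl and 1.19, 1.30 and 1.06 CPM in Sox2 cKO. Of 6 monocyte and dendritic cell genes 2 were tested, Flt3, the most abundant, with a log2 change of 0.00, and Ccr2 with a log2 change of 0.51, and the sum, nearly all Flt3, was 29, 29 and 28 CPM in Ctrl and 29, 32 and 29 CPM in Sox2 cKO, to the nearest whole CPM. With 1 library left out in edgeR, the log2 change ran from -0.89 to 0.18 for Trac, which was above 0 without Ctrl library 6, from 0.25 to 1.11 for Cd79a and from 0.02 to 1.08 for Ccr2. None of the T, NK, B, monocyte and dendritic cell genes tested was called in edgeR or DESeq2 with all libraries, where none had an unadjusted p below 0.05 in edgeR, while Cd79a had one without Ctrl library 4. The part of any of these cells in the class I values was not tested.

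Of 10 astrocyte genes, S100b was higher and 5 (Gfap, Aqp4, Aldh1l1, Slc1a2 and Slc1a3) were lower in edgeR, with sums of 9390, 9760 and 11300 CPM in Ctrl and 7370, 7340 and 7600 CPM in Sox2 cKO. Gfap was the most abundant at 773 FPKM and the most changed, at a log2 change of -1.11. All 3 oligodendrocyte precursor genes, Pdgfra, Cspg4 and Gpr17, were lower, Gpr17 being the most abundant and the most changed at a log2 change of -0.87, and their sum was 130, 144 and 151 CPM in Ctrl and 77.9, 89.0 and 111 CPM in Sox2 cKO. Of 5 ependymal genes, Foxj1, the most abundant, was lower, at a log2 change of -0.35, Rarres2 changed the most, at a log2 change of 0.39, and the sum was 48.1, 51.2 and 56.8 CPM and 44.0, 42.6 and 45.8 CPM. Without Sox2 cKO library 1, edgeR called 0 genes of these 3 lists (7, 3 and 1 had an unadjusted p below 0.05) and DESeq2 called 6, 3 and 1 lower, and without Ctrl library 4 edgeR called 1 astrocyte gene lower and DESeq2 4, 1 and 0. Without Ctrl library 6 edgeR called 3, 1 and 0 lower, without Sox2 cKO library 3 it called 4, 1 and 0, and without Sox2 cKO library 5 it called 4, 3 and 0. After the length correction edgeR called Gfap, Aqp4, Gpr17 and Foxj1 lower and 0 genes of these lists higher, and the list medians were -0.26, -0.35 and -0.43, against -0.31, -0.67 and -0.11 before it. The ependymal median was 0.01 without Ctrl library 2.

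In the lists that follow edgeR called 0 genes with all libraries. Red blood cell genes (5 tested, 0 with an unadjusted p below 0.05) summed to 57.1, 75.0 and 166 CPM in Ctrl and 82.4, 76.8 and 98.4 CPM in Sox2 cKO, with Hbb-bs the most abundant and Alas2 the most changed, at a log2 change of -0.60. In edgeR, Hbb-bt and Alas2 were called lower without Ctrl library 2 and Hbb-bs was called higher without Ctrl library 6, where the list median turned from -0.36 to 0.28. Meningeal fibroblast genes (6 tested, 0 with an unadjusted p below 0.05) summed to 546, 507 and 202 CPM and 572, 437 and 432 CPM, low in Ctrl library 6, with Igf2 the most abundant and Dcn the most changed, at a log2 change of 0.61. Without that library edgeR called Col1a1 and Col1a2 lower, and the list median went from 0.37 to -0.01. With all libraries DESeq2 called 0 genes of these 2 lists. Neuron genes (8 tested, 2 with an unadjusted p below 0.05) summed to 5060, 4270 and 4190 CPM and 5100, 5300 and 5170 CPM, Snap25 being the most abundant and the most changed, at a log2 change of 0.35, and DESeq2 called Snap25 and Slc32a1 higher, as edgeR did without Ctrl library 2. Snap25 was also called higher in edgeR after the length correction (adjusted p 0.0402).

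**Figure D5:**
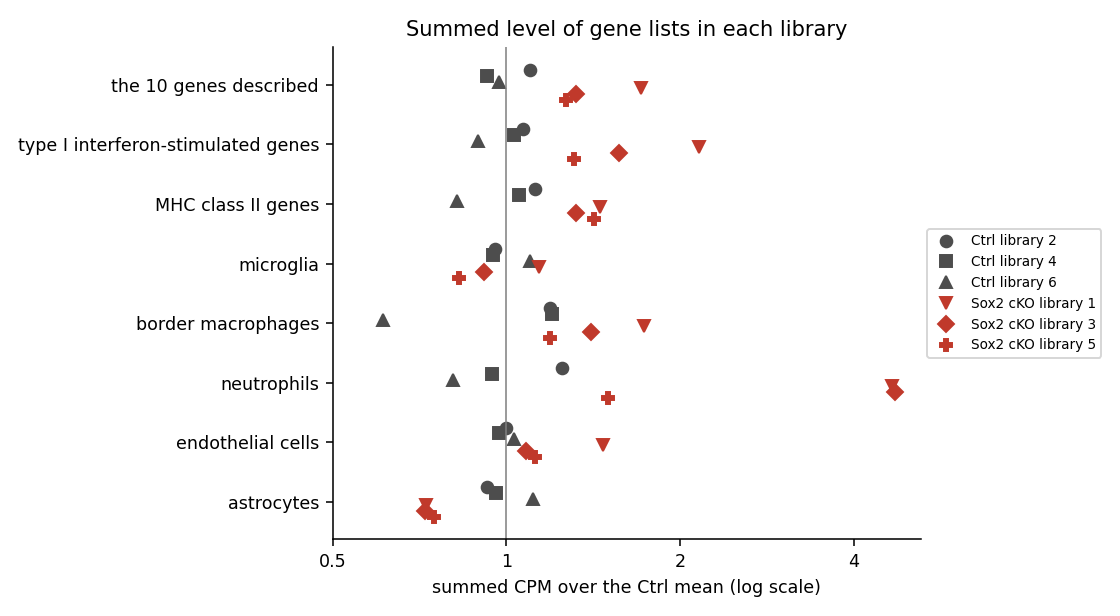
Summed CPM of gene lists in each library over the mean of the Ctrl libraries (horizontal axis, log scale), with 1 symbol per library (grey Ctrl, red Sox2 cKO). In Sox2 cKO the 10 class I pathway genes stood at 1.71, 1.32 and 1.27 times the Ctrl mean and the neutrophil list at 4.65, 4.71 and 1.5.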

How the data were processed

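Spinal cord poly(A) RNA of 3 Sox2 cKO and 3 Ctrl mice was sequenced as single-end reads. The authors aligned these to mm10 with STAR 2.5 and counted reads per gene with HTSeq 0.6.1, without normalization. The deposited FPKM values were computed by the authors from the same counts, divided by gene length and library total, and gene lengths were recovered from both tables. Of 35275 identifiers, 34490 matched GENCODE M21 (GRCm38), which gave positions and GC content. Beside the counts and FPKM values, 0 further columns of per-sample values were found. The 15 pairs of libraries differed by more than sampling noise (lowest chi-square per degree of freedom 5.57).

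All genes were tested with edgeR 4.0.16 (R 4.3.3; filterByExpr, TMM, quasi-likelihood test, no covariate), with Benjamini-Hochberg adjustment and a threshold of 0.05. Ratios were compared with exact permutation tests. Alternatives were DESeq2 1.42.0, upper quartile normalization, 2 other filters, limma 3.58.1 on FPKM, length and GC corrections, and each library left out. Class I genes and gene lists were chosen with earlier results of these data known. Of the marker lists planned, 2 are not reported here in full, nor are some single results of other lists. Named from each pathway list are genes that passed the test (the 4 largest changes per direction if more passed) and the most abundant gene, and from each marker list the most abundant and the most changed gene. Other names were chosen after their values were seen.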

Additional observations from a re-analysis of the deposited data

How the results depend on the processing

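Of the 10 class I genes, edgeR called 3 with all libraries and between 0 and 3 when 1 library was left out. DESeq2 called 4 and between 2 and 4. Over all genes, edgeR called 3970, 2105 after the length correction, and between 8 and 6119 when a library was left out. In limma on FPKM with a pseudocount of 1, 74.5% of called genes were higher, against 49.4% in edgeR, and the median log2 fold change of all genes was 0.09, or 0.11 with a pseudocount of 0.1. Relative to the limma median with a pseudocount of 1, B2m stood at 0.84, H2-D1 at 0.55, Psmb10 at 0.42 and H2-K1 at 0.38.

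Among the 10 genes, signs changed in Tapbp, Tap1 and Nlrc5, which were not called. Tapbp was -0.03 after the length correction and -0.03 after the GC correction. When a library was left out in edgeR or DESeq2, Tapbp ranged from -0.06 to 0.10, Tap1 from -0.22 to 0.32 and Nlrc5 from -0.45 to 0.78 (lowest in edgeR -0.43), and the log2 difference of the Psmb9 to Psmb6 ratio from -0.04 to 0.29. For each of these, the cause was not tested. Nlrc5 was below the FPKM minimum of limma. No paired analysis was possible because the columns carry library numbers and not the replicate numbers of the samples.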
